A study of Mus musculus with 4 samples.

Results

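Nos2, Arg1, Arg2, Ass1, Asl, Slc7a2, Gch1, Odc1 and Acod1 are the genes of nitric oxide and arginine metabolism examined here, with Acod1 added as the itaconate-forming enzyme that macrophages and microglia induce together with Nos2. They were chosen by gene name from a list of 9 symbols. All 9 were found among the 54532 genes of the count tables, and all 9 were among the 13811 protein-coding genes tested. Poly-A RNA was sequenced from primary microglia of CD1 mice treated for 24 h with 1 µM epigallocatechin gallate (EGCG), a galloylated flavan-3-ol of green tea, or with the DMSO vehicle. There were 4 libraries, 1 for each treatment in each of 2 biological replicates, and no genetic change or inflammatory stimulus was applied to any of them. All cells came from mixed glial cultures of newborn male pups. The astrocyte layer had been removed with trypsin, and the microglia were then kept in serum-free medium with IL-34, TGFβ2, GM-CSF and cholesterol. The labels state biological replicates but not whether these were separate litters or cultures, so p-values measure the spread between these libraries.

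Arginine enters cells through cationic amino acid transporters and is then shared between competing enzymes. Inducible nitric oxide synthase turns it into nitric oxide and citrulline, a step that needs tetrahydrobiopterin (BH4), while arginase turns it into urea and ornithine, from which polyamines and proline are made. Citrulline can be returned to arginine by argininosuccinate synthase and argininosuccinate lyase. In rodent microglia and macrophages high Nos2 is a classic mark of inflammatory activation, and high Arg1 a classic mark of the response to IL-4.

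Total counts ranged from 33805071 to 54970300 per library, the deepest being EGCG replicate 2, and 3 counts corresponded to 0.0546 to 0.0889 CPM (counts scaled by library size and edgeR's TMM factors). Together the 9 genes took 0.194% and 0.183% of counts in the vehicle and EGCG libraries of replicate 1, and 0.0703% and 0.0773% in those of replicate 2. All 8 microglia markers examined lay above 3 counts in every library, with summed levels of 4211 to 5132 CPM. The astrocyte markers summed to 13.5 to 19.1 CPM, those of the oligodendrocyte lineage to 110 to 148 CPM, those of endothelium to 5.63 to 19.3 CPM and those of stromal cells to 250 to 662 CPM. The endothelial marker Cldn5 was at 0 counts in every library, and Aqp4 and S100b were at 0 in EGCG replicate 1.

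Ordered by mean level per kb of gene length, the set ran from Ass1 at 266 CPM per kb through Acod1 at 65.5, Arg2 at 51.1 and Slc7a2 at 34.1 CPM per kb to Asl at 9.56, Gch1 at 7.89 and Odc1 at 7.88 CPM per kb. The genes that name the classical inflammatory and IL-4 responses were at the bottom, with Nos2 at 0.720 and Arg1 at 0.666 CPM per kb. The ranges of neighbours in this order overlapped over the 4 libraries, except for Ass1 against Acod1 and Odc1 against Nos2. The unstimulated cultures therefore held much more mRNA for arginine uptake and for citrulline recycling than for either Nos2 or Arg1.

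**Figure D1:**
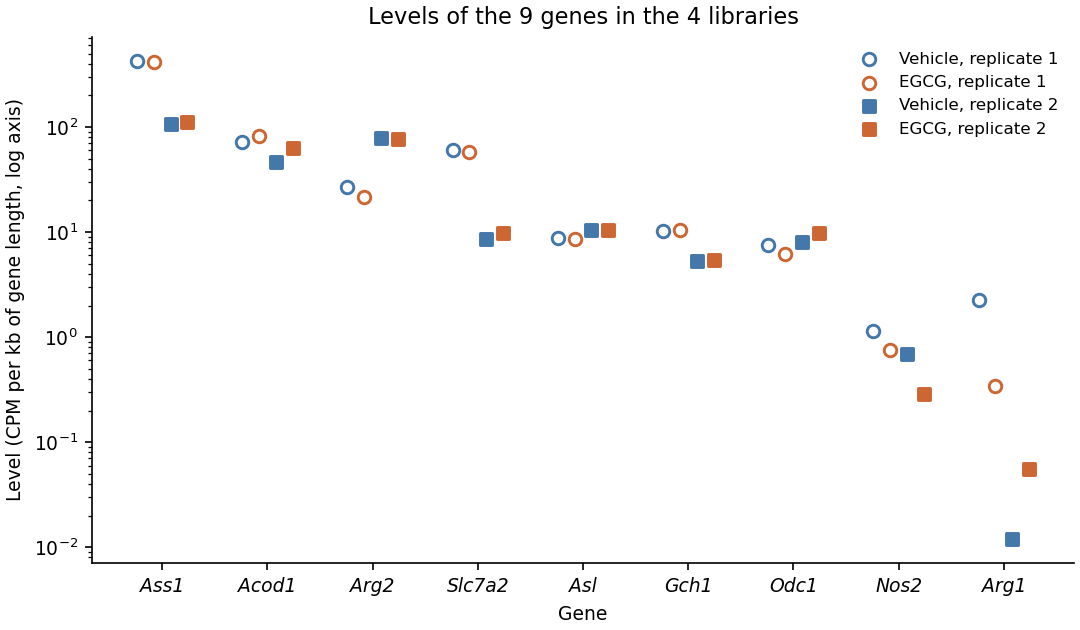
Level of each gene in each library, in CPM per kb of gene length on a log axis, with vehicle libraries in blue, EGCG libraries in orange, replicate 1 as open circles and replicate 2 as filled squares. Ass1 was highest, at 106 to 428 CPM per kb, Nos2 and Arg1 were lowest, and for most genes the symbols group by replicate rather than by treatment.

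EGCG was compared with vehicle to ask whether it altered this pathway in these cultures. At an unadjusted p under 0.05, none of the 9 genes was called by the quasi-likelihood test of edgeR fitted to treatment alone, where 16 of all genes tested were called, or 0.116%. With the replicate number added as a block, 2 of 9 passed, Nos2 lower and Acod1 higher, against 3.21% of all genes. DESeq2 with the same block also called 2 of 9, again Nos2 and Acod1, against 1.11% of all genes. After Benjamini-Hochberg adjustment over all genes no member passed an adjusted p under 0.1 in edgeR or DESeq2, with or without the block. The median log2 fold change was -0.01 over the members and 0.01 over all genes tested. With 2 libraries per group the smallest two-sided p of an exact permutation test that ignores the replicate number is 0.333. Permuting within replicates allows fewer arrangements still. Each call therefore rests on the fitted models. In bulk RNA, fewer cells expressing a gene and less RNA per cell cannot be told apart.

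EGCG was below vehicle in both replicates for Nos2 and Arg2, 2 of the 9 genes, where 20.6% of all genes tested were lower in both. It was above vehicle in both replicates for Gch1 and Acod1, where 29.9% of all genes were higher in both. For the other 5 genes, Arg1, Ass1, Asl, Slc7a2 and Odc1, the replicates went in opposite directions. Across all genes tested, the EGCG differences of the 2 replicates were nearly uncorrelated (Pearson r = -0.05).

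**Figure D2:**
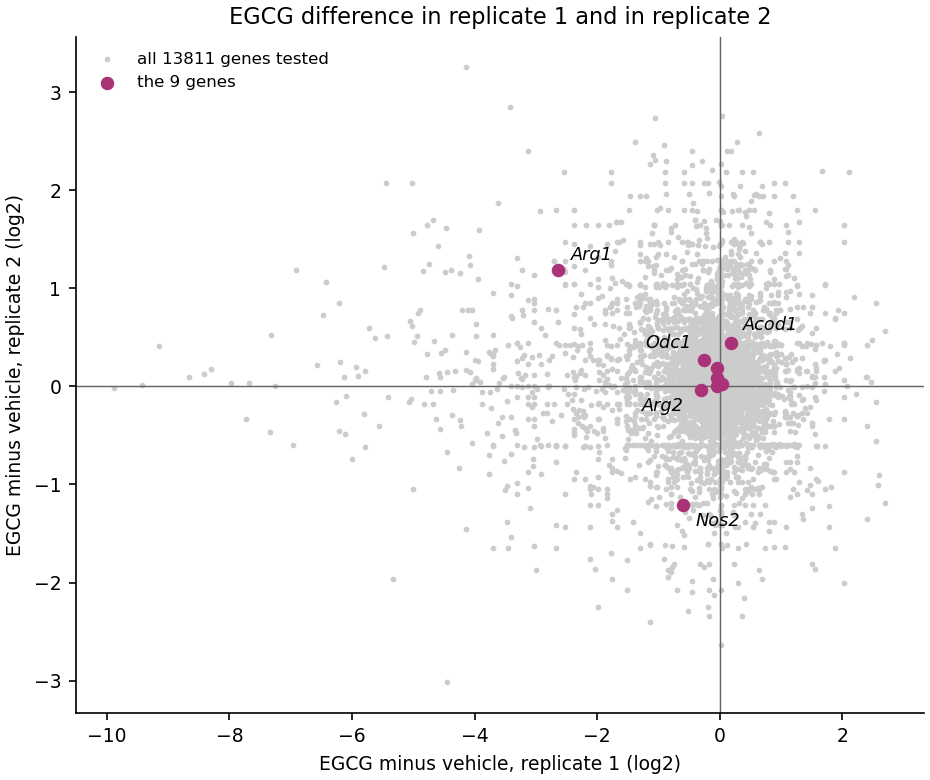
Difference between EGCG and vehicle (log2 CPM) in replicate 1 on the x axis and in replicate 2 on the y axis, with the 9 genes in purple over all 13811 genes tested in grey. Nos2 lies in the lower left at -0.60 and -1.21, Acod1 in the upper right at 0.18 and 0.44, and Arg1 at -2.64 in replicate 1 but 1.18 in replicate 2.

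Nos2, inducible nitric oxide synthase (ENSMUSG00000020826, GRCm38 chr11:78920787-78960254, plus strand), had 170 (vehicle) and 109 (EGCG) counts in replicate 1 and 113 and 72 counts in replicate 2. Scaled to CPM, replicate 1 held 5.08 and 3.33 and replicate 2 held 3.02 and 1.28, with group means of 4.05 ± 1.45 CPM for vehicle and 2.31 ± 1.45 CPM for EGCG (SD, n = 2). EGCG was lower within each replicate, but the groups overlapped, because EGCG replicate 1 was above Vehicle replicate 2. EGCG over vehicle was 0.657-fold in replicate 1 (95% counting interval 0.511 to 0.840) and 0.423-fold in replicate 2 (0.311 to 0.574). Intervals of this kind cover counting error only.

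Without the block the log2 fold change of Nos2 was -0.82 ± 0.63 (SE; unadjusted p = 0.263, edgeR quasi-likelihood test). Blocking on replicate gave -0.91 ± 0.24 (edgeR, unadjusted p = 0.0114, Benjamini-Hochberg adjusted p = 0.995). DESeq2 with the block gave -0.92 ± 0.44 and an unadjusted p of 0.0363. Nos2 mRNA was thus low in every library and lower with EGCG in both pairs, by an amount that passed only in the paired fits and only before adjustment.

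The constitutive synthases were lower still. Nos1, the neuronal form, had 12 to 36 counts per library and Nos3, the endothelial form, had 1 to 5. Of the synthases and their partners 9 genes were tested, and none was called by edgeR, with or without the block, at an unadjusted p under 0.05. Nosip and Nostrin, which bind the endothelial synthase, were the most abundant of these partners at 16.7 and 3.90 CPM per kb, and their log2 fold changes with the block were -0.04 and 0.09. Gucy1b1, a subunit of the soluble guanylate cyclase that senses nitric oxide, had 1 to 8 counts, and its partner subunits Gucy1a1 and Gucy1a2 had at most 2 counts in any library and were not tested.

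Gch1, GTP cyclohydrolase, catalyses the rate-limiting step of BH4 synthesis (ENSMUSG00000037580, chr14:47153895-47189413, minus strand). Its level was 64.5 CPM with vehicle and 66.1 CPM with EGCG in replicate 1, and 33.2 and 33.6 CPM in replicate 2. Vehicle and EGCG lay close together within each replicate and the groups overlapped. The ratio of EGCG to vehicle was 1.02-fold in replicate 1 (0.965 to 1.09) and 1.01-fold in replicate 2 (0.943 to 1.09). Blocked on replicate, edgeR gave a log2 fold change of 0.03 ± 0.06 (unadjusted p = 0.656). Neither counting interval reached beyond 0.943-fold to 1.09-fold. Of the 6 other BH4 genes tested, none was called with or without the block. Qdpr, which regenerates BH4, was the most abundant at 29.9 CPM per kb, with a log2 fold change of 0.15 with the block. Pcbd2 followed at 19.8 CPM per kb. Gchfr, the feedback regulator of GTP cyclohydrolase, had only 23, 36, 9 and 27 counts and a log2 fold change of 0.82 ± 0.48 (edgeR, blocked; unadjusted p = 0.144).

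Acod1, aconitate decarboxylase, makes the immunomodulatory metabolite itaconate from cis-aconitate (ENSMUSG00000022126, chr14:103046977-103056573, plus strand). In replicate 1 it had 6314 counts with vehicle and 6988 with EGCG, or 189 and 214 CPM, and in replicate 2 4515 and 9247 counts, or 121 and 164 CPM. EGCG was above vehicle in each replicate, and the groups overlapped because Vehicle replicate 1 exceeded EGCG replicate 2. The ratio to vehicle was 1.13-fold in replicate 1 (1.10 to 1.17) and 1.36-fold in replicate 2 (1.31 to 1.41). In edgeR its log2 fold change was 0.29 ± 0.29 (unadjusted p = 0.381) unblocked and 0.31 ± 0.07 (unadjusted p = 0.00797, Benjamini-Hochberg adjusted p = 0.995) when blocked. DESeq2 with the block gave an unadjusted p of 0.00113 and an adjusted p of 0.918. Without Vehicle replicate 2, the lowest library, the unblocked log2 fold change was -0.02. That fit set Vehicle replicate 1 alone against both EGCG libraries, so treatment and replicate cannot be told apart in it.

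Nos2 and Acod1, both inducible by inflammatory signals, therefore differed from vehicle in opposite directions within each replicate. The level per kb of Acod1 was 62.5 times that of Nos2 in Vehicle replicate 1 and 108 times in EGCG replicate 1. The ratio was 67.2 in Vehicle replicate 2 and 216 in EGCG replicate 2. Its rise with EGCG within each replicate follows from the opposite directions of Nos2 and Acod1, and is not separate evidence of an effect.

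**Figure D3:**
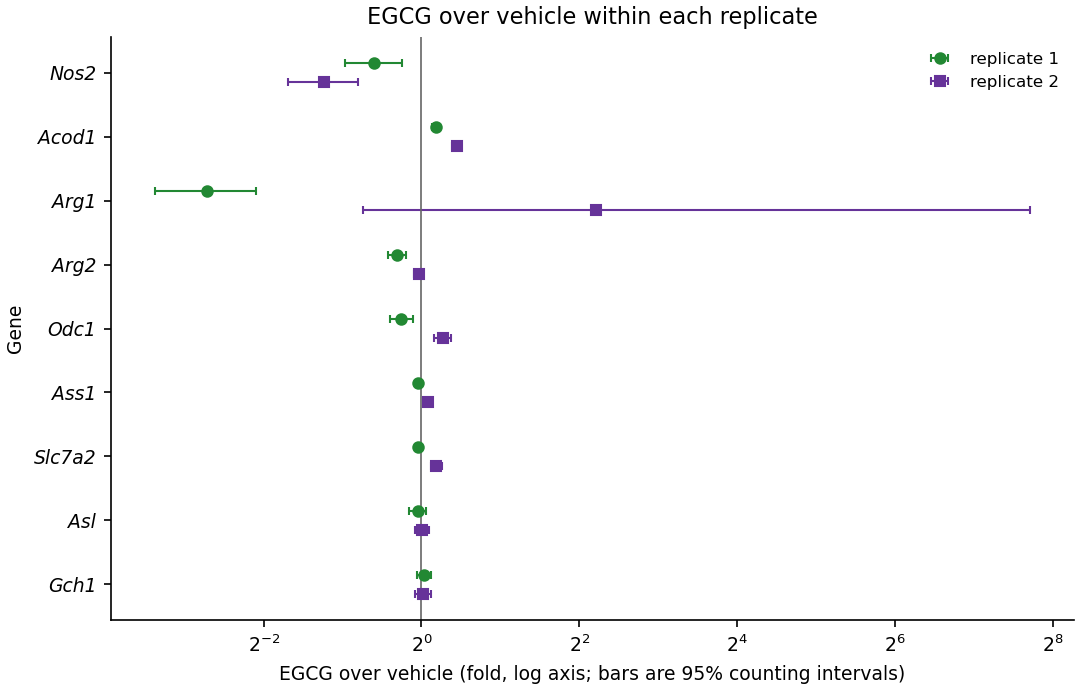
EGCG over vehicle for each gene within replicate 1 (green circles) and replicate 2 (purple squares), as a fold on a log axis with 95% counting intervals. Nos2 is below 1 and Acod1 above 1 in both replicates, whereas the interval of Arg1 in replicate 2 runs from 0.597 to 210.

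The sequences upstream of Acod1 and Gch1 are shown because EGCG lay above vehicle in both replicates for these genes. Acod1 passed the test with the replicate block, but only before adjustment. Gch1 did not, at only 1.02-fold and 1.01-fold the vehicle level, with counting intervals on both sides of no change. Both sequences were taken from a RefSeq promoter table of build GRCm38.p6, which held 4 of the 9 genes (Ass1, Gch1, Odc1 and Acod1). Only bases upstream of the transcript starts of both RefSeq and the count tables are printed, 5′ to 3′ on the strand of the gene. Matches to the letters of the CCAAT box and of the TATA box, on either strand, are in capitals.
Acod1, chr14:103046762-103046976, plus strand: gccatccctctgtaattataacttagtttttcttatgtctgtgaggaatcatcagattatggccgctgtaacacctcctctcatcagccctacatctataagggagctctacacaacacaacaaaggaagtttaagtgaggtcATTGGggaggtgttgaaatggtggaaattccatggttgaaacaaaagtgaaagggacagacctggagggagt
Gch1, chr14:47189414-47189663, minus strand: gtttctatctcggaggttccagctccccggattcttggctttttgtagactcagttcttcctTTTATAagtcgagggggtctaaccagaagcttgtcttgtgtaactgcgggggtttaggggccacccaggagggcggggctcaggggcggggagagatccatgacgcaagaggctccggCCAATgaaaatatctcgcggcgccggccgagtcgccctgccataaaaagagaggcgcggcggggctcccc

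The motifs searched on both strands of the 300 bases around each start were GAS (TTCNNNGAA), the ISRE core (GAAA repeated after a gap of any 2 bases), kappaB (GGGA, any 3 bases, then TCC), AP-1 (TGANTCA), the E-box (CACGTG), the CCAAT box (CCAAT), the TATA box (TATAAA) and the antioxidant response element (TGANNNNGC). In Acod1 the CCAAT box lay at -107 to -103 from the RefSeq start and a TATA box, outside the printed stretch, at -28 to -23. In Gch1 a CCAAT box lay at -70 to -66, and the letters TATAAA lay at -188 to -183 on the opposite strand only. CCAAT occurred in 37.4% and TATAAA in 13.6% of the 32851 promoters of the table, so these matches are common. The letters of GAS, ISRE core, kappaB, AP-1 and the antioxidant response element were found in none of the 4 windows, and they occurred in 8.3%, 3.44%, 4.59%, 7.81% and 41.3% of all promoters. A match, or its absence, describes these letters only. The Acod1 window was 47% GC and that of Gch1 60.3%, against a median of 52.7% over all promoters.

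Arg1, the cytosolic arginase and the best known gene of the alternative activation of rodent macrophages (ENSMUSG00000019987, chr10:24915221-24927484, minus strand), had 168 counts with vehicle and 25 with EGCG in replicate 1, but 1 and 7 counts in replicate 2. Scaled to CPM, replicate 1 held 5.02 and 0.765, and replicate 2 held 0.0267 and 0.124. The Vehicle replicate 1 library was far above the other 3, and Vehicle replicate 2 was below 3 counts. EGCG over vehicle was 0.152-fold in replicate 1 (0.0959 to 0.233) and 4.65-fold in replicate 2 (0.597 to 210), so the replicates pointed in opposite directions and the second could not resolve a change at this depth. For Arg1 edgeR gave a log2 fold change of -2.53 ± 2.21 (unadjusted p = 0.318), and -1.52 ± 1.01 (unadjusted p = 0.191) blocked on replicate. In unblocked edgeR fits the log2 fold change of Arg1 was -3.55 without Vehicle replicate 2 and turned to 3.88 without Vehicle replicate 1. Each of these fits set the remaining vehicle library against both EGCG libraries, so treatment and replicate cannot be told apart in them.

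The summed level of 7 stromal markers moved with Arg1 within replicate 1. It was 662 CPM in Vehicle replicate 1 and 250 CPM in EGCG replicate 1, against 325 and 335 CPM in the vehicle and EGCG libraries of replicate 2. In EGCG replicate 1, 4 of the 7 lay above 3 counts, with Col1a1 at 4, Col1a2 at 3, Col3a1 at 6, Dcn at 2 and Lum at 0 counts, and most of the sum there was Postn with 8133 counts. In the other 3 libraries all 7 lay above 3 counts. Both libraries of replicate 2 held stromal transcripts at intermediate levels together with the lowest Arg1 counts. The part of these transcripts in the Arg1 difference was not tested.

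Arg2, the mitochondrial arginase (ENSMUSG00000021125, chr12:79130777-79156301, plus strand), had 38.6 CPM with vehicle and 31.1 CPM with EGCG in replicate 1, and 113 and 110 CPM in replicate 2. Both libraries of replicate 2 were above both of replicate 1, and EGCG was slightly below vehicle in each. Relative to vehicle, EGCG was 0.807-fold in replicate 1 (0.742 to 0.877) and 0.975-fold in replicate 2 (0.937 to 1.01). The log2 fold change was -0.10 ± 0.83 (unadjusted p = 0.910) without and -0.17 ± 0.08 (unadjusted p = 0.0990) with the block in edgeR, neither past the threshold. Arg2 shares 285 transcribed bases with Vti1b on the opposite strand, which had 3197 to 5819 counts. The library kit kept strand, but the strand setting of the counting is not given in the sources used here, so the level of Arg2 is uncertain to that extent.

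Arginase mRNA in these cultures was almost entirely Arg2. Per kb of gene length, Arg1 made up 7.69% (vehicle) and 1.55% (EGCG) of the summed arginase level in replicate 1, and 0.0152% and 0.0726% of it in replicate 2. The level per kb of Arg2 was 23.5 and 28.9 times that of Nos2 in the vehicle and EGCG libraries of replicate 1, and 115 and 265 times in those of replicate 2.

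Slc7a2 encodes a cationic amino acid transporter that brings in arginine (ENSMUSG00000031596, chr8:40862396-40922308, plus strand). Levels were 548 CPM (vehicle) and 532 CPM (EGCG) in replicate 1 but 78.1 and 89.1 CPM in replicate 2. The libraries split by replicate, with both of replicate 1 far above both of replicate 2, and treatment made little difference within either. The EGCG to vehicle ratio was 0.971-fold in replicate 1 (0.951 to 0.991) and 1.14-fold in replicate 2 (1.09 to 1.19). Blocked on replicate, its log2 fold change was 0.07 ± 0.07 (edgeR, unadjusted p = 0.373). An overlapping non-coding gene on the opposite strand, Gm26584, had 72, 43, 5 and 12 counts.

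The constitutive transporter of the same family, Slc7a1, was steadier across the libraries. The level per kb of Slc7a2 was 13.7 times that of Slc7a1 in both libraries of replicate 1, but only 1.69 times in Vehicle replicate 2 and 1.95 times in EGCG replicate 2. None of the 6 other transport genes tested was called for EGCG with or without the block. Slc3a2, the heavy chain that partners several amino acid transporters, was the most abundant at 121 CPM per kb with a log2 fold change of -0.01 with the block, and Slc7a7, one of its light chains, followed at 26.7 CPM per kb with -0.02.

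Ass1, argininosuccinate synthase, joins citrulline and aspartate in the first step of arginine recycling (ENSMUSG00000076441, chr2:31470207-31520672, plus strand). Vehicle and EGCG had 34605 and 32892 counts in replicate 1, or 1034 and 1006 CPM, and 9586 and 15329 counts in replicate 2, or 256 and 272 CPM. The replicates were separated and the treatments were not. EGCG gave 0.973-fold the vehicle level in replicate 1 (0.959 to 0.988) and 1.06-fold in replicate 2 (1.04 to 1.09). Its log2 fold change was -0.01 ± 0.96 (unadjusted p = 0.990) without and 0.02 ± 0.06 (unadjusted p = 0.721) with the block in edgeR.

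Part of the Ass1 reads could not be assigned with certainty, since the mouse genome holds a processed pseudogene, Gm5424 (chr10:62071123-62072362), that was 99.52% identical to the Ass1 transcript over 1240 bases in GENCODE. The 6 differences, counted from 1 at the first base of the Ass1 start codon and given as the Ass1 base, the position and the Gm5424 base, were T399C, T429C, A520T, G656C, T1011C and C1143T, all within the coding sequence. The longest stretch without a mismatch was 398 bases, and the stretch around G656C shows how alike the copies are, with the differing base in capitals.
Ass1, chr2:31498175-31498235, plus strand: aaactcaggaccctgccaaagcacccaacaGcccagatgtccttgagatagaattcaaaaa
Gm5424, chr10:62071748-62071808, plus strand: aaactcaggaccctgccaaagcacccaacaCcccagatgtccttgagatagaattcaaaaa

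Gm5424 had 8297 counts with vehicle and 7053 with EGCG in replicate 1, and 2395 and 4020 in replicate 2, or 24.0%, 21.4%, 25.0% and 26.2% of the Ass1 counts. Its counts followed those of Ass1 from library to library. How reads that match both were counted is not given in the sources used here.

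Asl, argininosuccinate lyase, releases arginine in the second step of the recycling (ENSMUSG00000025533, chr5:130011258-130029247, minus strand). Levels were 42.8 CPM with vehicle and 41.5 CPM with EGCG in replicate 1, and 50.1 and 50.3 CPM in replicate 2. All 4 libraries were close, and it was the steadiest member between replicates. In the blocked fit of edgeR its log2 fold change was -0.02 ± 0.06 (unadjusted p = 0.755). Because Ass1 differed between replicates and Asl hardly did, the level per kb of Ass1 was 48.3 and 48.5 times that of Asl in replicate 1 but 10.2 and 10.8 times in replicate 2.

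The genes that complete the hepatic urea cycle were close to undetected, with Cps1 at 0 counts in every library and Otc at no more than 2. Of the 7 urea cycle and proline genes tested, none was called for EGCG. Oat, which takes ornithine towards proline, was the most abundant at 34.0 CPM per kb, with a log2 fold change of 0.04 with the block. Nags, which makes the cofactor that activates the first urea cycle enzyme, had 132 and 94 counts in replicate 1 but 3 and 7 in replicate 2.

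Odc1, ornithine decarboxylase, starts polyamine synthesis (ENSMUSG00000011179, chr12:17544794-17551505, plus strand). Vehicle and EGCG stood at 25.4 and 21.3 CPM in replicate 1, and at 27.5 and 33.1 CPM in replicate 2. EGCG was the lower of the pair in replicate 1 and the higher in replicate 2. EGCG over vehicle was 0.837-fold in replicate 1 (0.756 to 0.927) and 1.20-fold in replicate 2 (1.11 to 1.30), so the replicates differed by more than counting error. The blocked estimate was 0.01 ± 0.13 on the log2 scale (edgeR, unadjusted p = 0.920). Odc1 has 19 near-identical copies in the annotation, which together held 391, 393, 524 and 897 counts, or 46.0%, 56.5%, 50.9% and 48.1% of the Odc1 count. Nearly all of these were on Gm7993 and AW146154.

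Downstream of Odc1, 2 of the 13 polyamine genes tested passed an unadjusted p under 0.05 with the block and none without it, against 3.21% and 0.116% of all genes tested. Smox, spermine oxidase, had 4239, 3155, 3534 and 4683 counts, was lower with EGCG in both replicates, by -0.39 and -0.18 on the log2 scale, and gave -0.29 ± 0.07 (blocked edgeR fit, unadjusted p = 0.00770). Sms, spermine synthase, was higher in both, by 0.19 and 0.20, and gave 0.19 ± 0.06 (blocked edgeR fit, unadjusted p = 0.0174). The enzyme that makes spermine was therefore higher and the enzyme that oxidises it lower in the paired fit, and only Smox was also called by DESeq2 with the block (unadjusted p = 0.00398). Neither passed after adjustment over all genes. Eif5a, the translation factor that carries the spermidine-derived amino acid hypusine, and Sat1, which acetylates polyamines for export, were the most abundant at 172 and 149 CPM per kb, with log2 fold changes of 0.03 and -0.02. Oaz3, an antizyme, differed most between replicates, with only 14, 15, 10 and 3 counts.

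Over the 8 lists of surrounding genes, 67 of 74 genes were tested, and 4 passed an unadjusted p under 0.05 with the block, 2 higher and 2 lower, against 3.21% of all genes, with none passing without it. Beside Smox and Sms these were Stat3, a transcription factor activated by cytokines, at -0.13 ± 0.05 (unadjusted p = 0.0421), and Sdhb, a subunit of the succinate dehydrogenase that itaconate inhibits, at 0.17 ± 0.06 (unadjusted p = 0.0283), both by edgeR with the block. Among the transcription factors of Nos2 and Arg1, the other 10 genes were not called. Cebpb, which acts on both genes, and Spi1, the myeloid master regulator, were the most abundant at 163 and 162 CPM per kb, with log2 fold changes of -0.07 and 0.04. Klf4 had 611, 354, 238 and 394 counts and the largest difference between replicates on that list. Among 10 itaconate and tricarboxylic acid cycle genes Sdhb was the only one called, and Idh1, which follows aconitase in the cytosol, stood next to it in abundance at 53.3 CPM per kb. Of the 5 genes of arginine methylation, creatine and agmatine tested, none was called. Gatm, which starts creatine synthesis from arginine, had 55.4 and Prmt1, an arginine methyltransferase, 13.7 CPM per kb.

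**Figure D4:**
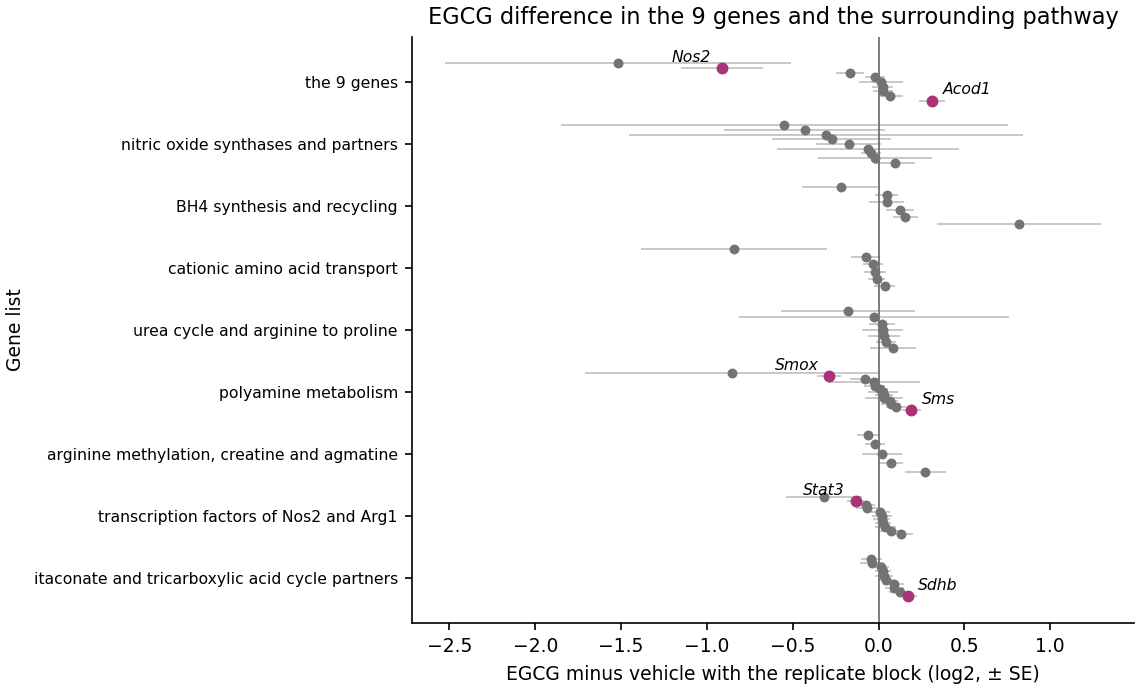
Log2 difference between EGCG and vehicle from edgeR with the replicate block, for the 9 genes and for each list of surrounding genes. Bars are the SE derived from edgeR's F statistic. Genes at an unadjusted p under 0.05 are in purple and named. Nos2, Smox and Stat3 are below 0, Acod1, Sms and Sdhb are above 0, and the remaining genes of all lists are grey.

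The difference between the replicates was larger than that between treatments for most of the set. Replicate 2 differed from replicate 1 at a Benjamini-Hochberg adjusted p under 0.1 in edgeR (treatment kept in the fit) for 9 of 9 members, 3 higher and 6 lower, where 53.5% of all genes tested did. The median absolute log2 difference was 1.06 over the members and 0.36 over all genes. Biological replicate and anything else that separated the cultures cannot be told apart here. Marker levels also split by replicate. The endothelial sum was 7.47 and 5.63 CPM in replicate 1 and 19.3 and 16.2 CPM in replicate 2, where Pecam1 was higher but Kdr and Cdh5 were not, Kdr being at 5.05 and 4.74 CPM against 2.92 and 2.75 CPM. The oligodendrocyte lineage sum was 148 CPM in both libraries of replicate 1 and 110 and 112 CPM in replicate 2. Microglia markers went both ways, Csf1r from 1171 and 1239 CPM in replicate 1 to 2326 and 2355 CPM in replicate 2, and Itgam from 396 and 408 CPM to 166 and 164 CPM. The part of these levels in the members' differences was not tested.

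Slc7a2 and Ass1 were lower in replicate 2. The 6 other transport genes went both ways, with 2 called higher and 2 called lower there. Slc7a7 and Slc7a1 differed by 1.51 and 0.22 on the log2 scale, and Slc3a2 and Slc7a6 by -0.37 and -0.26. Slc7a2 differed by -2.69 ± 0.07 and Ass1 by -1.95 ± 0.06 on the log2 scale. In fold terms Slc7a2 was 7.02 times higher in replicate 1 among the vehicle libraries (6.75 to 7.30) and 5.98 times among the EGCG libraries (5.79 to 6.17). Ass1 was 4.03 times (3.94 to 4.13) and 3.69 times (3.62 to 3.77) higher in the same comparisons. With the counts of Gm5424 added to Ass1, the call was kept.

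The inducible genes were lower in replicate 2 as well. Gch1 differed by -0.97 ± 0.06, Acod1 by -0.51 ± 0.07, Nos2 by -1.06 ± 0.24 (adjusted p = 0.0190 in edgeR) and Arg1 by -4.51 ± 1.03 (adjusted p = 0.0196 in edgeR). Arg1 rested on 168 and 25 counts in replicate 1 against 1 and 7 in replicate 2. Fits that left out a library also dropped the treatment term, and with that term alone dropped all 9 calls stood. In these fits the calls of Nos2 and Arg1 were lost without EGCG replicate 2, at log2 differences of -0.47 and -6.58. The call of Nos2 was also lost without Vehicle replicate 1, at -0.68, and those of Arg1 and Acod1 without Vehicle replicate 2, at -4.50 and -0.27.

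Arg2 stood against this direction, at 1.68 ± 0.08 higher in replicate 2, with both treatments giving a similar difference of 1.54 and 1.82. The arginase genes therefore differed in opposite directions between the replicates, Arg1 lower and Arg2 higher. Asl was 0.25 ± 0.06 higher (adjusted p = 0.0206 in edgeR) and Odc1 0.38 ± 0.13 higher (adjusted p = 0.0665 in edgeR). These were the weakest of the 9 calls. DESeq2 with the treatment term lost both, with adjusted p of 0.150 and 0.108, and the call of Odc1 was also lost in fits to replicate alone without Vehicle replicate 2 or EGCG replicate 2, at 0.52 and 0.25.

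**Figure D5:**
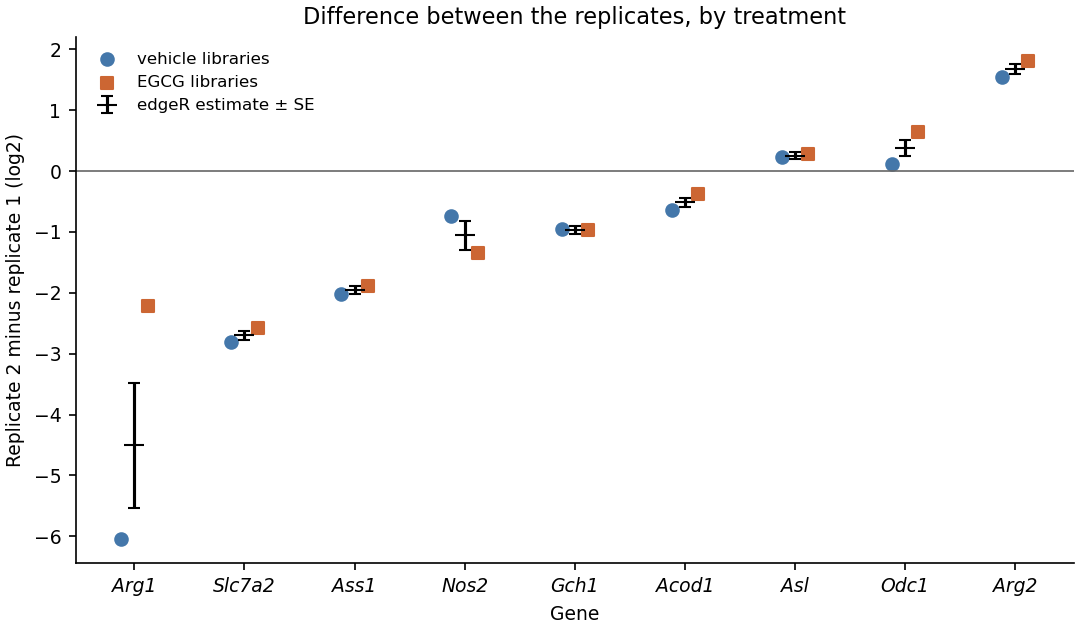
Log2 difference of replicate 2 from replicate 1 in the vehicle libraries (blue circles) and in the EGCG libraries (orange squares). In black are edgeR's estimate and the SE derived from its F statistic. From Arg1 at -4.51 to Arg2 at 1.68, 6 genes are lower and 3 higher in replicate 2, and for all but Arg1 both treatments lie within about 1 log2 unit of each other.

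Among the surrounding genes, 47 of 67 also differed between replicates at an adjusted p under 0.1 in edgeR, 18 higher and 29 lower, against 53.5% of all genes. Nags had the largest difference at -4.95. Slc7a7 was higher in replicate 2 by 1.51 on the log2 scale, while the differences of Gchfr, Klf4, Idh3a and Gamt were -1.33, -1.07, -0.83 and -0.70, each past the threshold. Oaz3 at -1.69 and Gucy1b1 at -1.97 had few counts and did not pass.

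The genes nearest to Nos2, Arg1 and Acod1 in their pattern over the 4 libraries were found by the Euclidean distance of centred log2 CPM. For Nos2 these were Rab40b, Pex5l and Shox2, at distances of 0.206, 0.225 and 0.226, each with at most 7 counts in any library. For Arg1 the nearest was Nt5e, which makes adenosine at the cell surface, with 1117, 514, 87 and 173 counts, but its distance was 1.63, so no gene followed Arg1 closely. Apol9a and Slfn4 came next at 1.66 and 1.67. For Acod1 the nearest were Hist1h2bj and Pcbp3, with at most 16 counts, at distances of 0.0483 and 0.0678, and then Gpx3, the secreted glutathione peroxidase, at 0.0838 with 1564, 1745, 1167 and 2203 counts. With 4 libraries such likeness is a description, and many genes can share a pattern.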

How the data were processed

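Whole-number, unnormalised read counts for each gene had been deposited by the authors as 1 table per biological replicate with a vehicle and an EGCG column. Per their methods, reads were filtered, then mapped to GRCm38.p6 by HISAT2; the counting program, its strand setting and its handling of multi-mapping reads are not given in the sources used here. Groups came from the sample labels, and replicate numbers of the columns from the titles and the study's submission sheet.

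Tables were joined on the Ensembl identifier (54532 genes, 22046 protein-coding). The 697 and 329 loci that each table numbers on its own were excluded, with at most 0.156% of counts. All 9 members had the same position in GENCODE release 21. Protein-coding genes with at least 10 counts over the 4 libraries were tested in R 4.3.3 with edgeR 4.0.16 (TMM, quasi-likelihood F test, two-sided) and, as an alternative, DESeq2 1.42.0, at an unadjusted p under 0.05 and a Benjamini-Hochberg adjusted p under 0.1. Log2 CPM used a prior count of 2. The SE given with an edgeR estimate was derived, as the absolute log2 fold change divided by the square root of its F statistic. Fits were tested on simulated data. The 4 libraries had 33805071 to 54970300 counts.

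Same-numbered libraries sit in 1 table and deviated together, with a Pearson r of 0.64 across genes for 2 pairs. This r is between the replicate differences of the vehicle and of the EGCG libraries. Between the EGCG differences of replicate 1 and of replicate 2 it was -0.05. Because of the shared deviation, blocked values are given for all of the 9 genes, for some without the unblocked value. EGCG over vehicle within a replicate carries a 95% exact binomial interval of its counts. Near-identical copies were found with BLAST 2.17.0 (90% identity over 200 bases). Alternatives covered the block, tool, test, normalisation, filter, gene classes and each library left out. Besides the 9 genes, the text names from each list the genes with p under 0.05, the 2 most abundant per kb and the one differing most between replicates; 1 gene so chosen is not reported here. Others named, such as Nos1, Nos3 and Cps1, were picked after their values were seen. Members, lists and tests were chosen with earlier results of these data known.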

Additional observations from a re-analysis of the deposited data

How the results depend on the processing

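Without the block, 16 genes passed an unadjusted p under 0.05 for EGCG, and the count was 444 with edgeR's replicate block, 153 with DESeq2 and the replicate block, 38 with the newer quasi-likelihood method, 78 with the likelihood ratio test, 3 with 10 counts required in every library, 35 with all biotypes, and 8 to 134 with a library left out. At an adjusted p under 0.1 it was 0, against 1 with edgeR's replicate block, 1 with DESeq2 and 7 with DESeq2 and the replicate block. Of the 9 members 2 passed with the replicate block in either tool, and 0 to 1 with a library left out, Arg1 without Vehicle replicate 2. Of the surrounding genes the replicate block called 4 in edgeR, and 1 in DESeq2. The paired fit changed no other call among the members and these genes.

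The block turned the log2 fold change of Ass1 to 0.024 (0.016 in DESeq2) and of Slc7a2 to 0.069 (0.062 in DESeq2), and scaling to total counts turned Gch1 to -0.010; none of these passed a test. Leaving out a library turned 8 members, with ranges of -4.31 to 3.88 for Arg1, -1.31 to 0.86 for Arg2, -1.24 to 1.32 for Ass1, -1.81 to 1.99 for Slc7a2, -0.54 to 0.59 for Gch1, -0.35 to 0.32 for Odc1, -0.19 to 0.11 for Asl and -0.016 to 0.65 for Acod1, and Stat3 (-0.49 to 0.15). Nos2 kept its direction in these fits (-1.66 to -0.31). All of them were run without the replicate block. The group short of a library was thus set against both replicates of the other, and treatment and replicate cannot be told apart there. The share of higher genes among those called was 25.0%, against 17.6% when scaled to total counts and 15.4% to upper quartiles, but 66% with edgeR's replicate block, 60.1% with DESeq2 and the block, and 2.24% to 80% with a library left out.

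Between replicates, 9 members passed, also with replicate as the only term, and 6 to 9 when a library was left out of that fit. Odc1 was lost with upper-quartile factors. The share of higher genes was 51.9%, against 61.5% when scaled to total counts and 44.3% to upper quartiles. Adding the counts of near-identical copies to Ass1 and Odc1, an alternative chosen after seeing the data, changed no call. Depth limits Arg1, with 1 and 7 counts in replicate 2, and Nos2, with 72 to 170.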
